A study of Homo sapiens with 9 samples.

Results

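Metallothionein transcripts and the genes that sense and export zinc were followed in AC16 cells, a proliferating human line derived from adult ventricular cells fused with SV40-transformed fibroblasts. The genes are the 9 rows of a table of read counts whose Ensembl identifiers map to MT2A, MT1E, MT1X, MT1F, MT1G, MT1M, MT1L, MTF1 and SLC30A1, out of 58299 rows in all. The groups were 3 libraries after 72 h and 3 libraries after 24 h of CDDO-Me at 100 nM, and 3 libraries after 72 h with the vehicle, DMSO at 0.1%. All groups were this 1 line, grown in the same medium with serum, and polyadenylated RNA was sequenced without keeping the strand. CDDO-Me, also called bardoxolone methyl, is a synthetic triterpenoid known to act on KEAP1 and so to release the transcription factor NRF2. A vehicle culture kept for 24 h was not analysed here. The 24 h cells therefore differ from the DMSO cells in length of exposure too, and may differ in time in culture. As a model of heart muscle the line is limited in these data: of 9 cardiac muscle markers none had enough reads to be tested, and MYH6, MYH7, RYR2, MYL2 and NKX2-5 had no read in any of the 9 libraries.

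Metallothioneins are small cytosolic proteins in which cysteines hold zinc and copper ions, and they bind cadmium as well. Their genes lie side by side on chromosome 16 and are known to be switched on by MTF1, a transcription factor that senses free zinc and binds short metal response elements in promoters. MTF1 also drives SLC30A1, which encodes ZnT1, the exporter that moves zinc out across the plasma membrane. Metallothionein transcripts are therefore widely used as a readout of available zinc, and they are also raised by glucocorticoids and by oxidants.

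The coding sequences of the metallothionein genes are close to identical, which bears on every count below. They are shown for MT2A and MT1E, the most abundant pair, 5′ to 3′ on the transcribed strand, as annotated in GENCODE 29 on GRCh38. Capitals mark the 14 bases at which they differ out of 186.
MT2A: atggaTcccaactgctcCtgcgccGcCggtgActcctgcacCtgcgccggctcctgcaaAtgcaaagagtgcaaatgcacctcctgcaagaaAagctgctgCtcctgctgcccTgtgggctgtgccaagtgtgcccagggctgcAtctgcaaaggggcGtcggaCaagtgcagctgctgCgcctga
MT1E: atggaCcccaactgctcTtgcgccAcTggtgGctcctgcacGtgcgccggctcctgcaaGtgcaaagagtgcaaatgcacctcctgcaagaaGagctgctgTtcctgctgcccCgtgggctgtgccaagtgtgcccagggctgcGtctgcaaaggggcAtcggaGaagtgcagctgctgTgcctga
Each sequence holds 61 codons before the stop, of which 20 encode cysteine. The coding sequence of MT2A lies in exons between chr16:56608656 and 56609354, and that of MT1E between chr16:56625852 and 56626971, both on the forward strand. The 2 sequences were 92.5% identical, and their longest shared run without a difference was 32 bases. Over the 15 pairs that MT2A, MT1E, MT1X, MT1F, MT1G and MT1M form, identity was 88.7 to 95.2% and the longest shared run was 32 to 96 bases. How reads matching more than 1 gene were treated is not given in the sources used here, so counts of the scarce family members in particular may include or lack reads of the abundant ones.

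Promoter windows of RefSeq (GRCh38.p14) were read for the members with an entry, which were MT2A, MT1X, MTF1 and SLC30A1, and MT1E, MT1F, MT1G, MT1M and MT1L had none. Each window holds the 250 bases before RefSeq's start of transcription, printed 5′ to 3′ on the gene's strand. The starts are RefSeq's, and the annotation behind the counts has other ones: the MT2A window lies within the counted MT2A gene and the MT1X window overlaps the counted MT1X gene, whose spans are given with their values. Capitals mark the core of the metal response element, TGCACNC or TGCGCNC on either strand.
MT2A, chr16:56608334-56608583, forward strand: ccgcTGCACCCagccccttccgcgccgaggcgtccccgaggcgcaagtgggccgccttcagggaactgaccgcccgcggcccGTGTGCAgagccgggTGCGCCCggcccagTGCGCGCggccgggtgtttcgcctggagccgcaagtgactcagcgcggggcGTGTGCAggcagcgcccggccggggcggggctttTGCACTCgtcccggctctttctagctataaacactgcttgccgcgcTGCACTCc
MT1X, chr16:56682220-56682469, forward strand: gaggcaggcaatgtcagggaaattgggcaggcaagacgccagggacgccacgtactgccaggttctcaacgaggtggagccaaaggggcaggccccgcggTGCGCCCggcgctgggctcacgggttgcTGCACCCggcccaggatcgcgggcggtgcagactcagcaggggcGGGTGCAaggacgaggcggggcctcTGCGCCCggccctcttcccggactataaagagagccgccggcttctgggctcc
SLC30A1, chr1:211579162-211579411, reverse strand: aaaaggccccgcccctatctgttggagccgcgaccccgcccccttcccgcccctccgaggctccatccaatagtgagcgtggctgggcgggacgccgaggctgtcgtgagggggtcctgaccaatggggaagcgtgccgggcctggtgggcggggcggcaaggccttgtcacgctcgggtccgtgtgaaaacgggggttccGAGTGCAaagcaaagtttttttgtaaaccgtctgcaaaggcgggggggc
The MT2A window held 7 matches, which lay between 246 and 2 bases before the start. MT1X held 4 matches, SLC30A1 held 1 and MTF1 held 0. Of 35116 windows of 27305 genes, 24.8% held at least 1 such match and 0.370% held at least 4. The core of the antioxidant response element that NRF2 is known to bind, TGACNNNGC on either strand, was found once in each of the MT2A, MT1X and SLC30A1 windows and in 10.9% of all windows. In MT2A that match was TGACTCAGC, which overlaps the AP-1 site TGACTCA, a motif present in 4.2% of all windows. These matches describe letters in the windows, and binding was not measured.

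Total counts were 16898977 to 27910031 per library. Values are CPM, the read count relative to the scaled library size, and a change is given as log2 of the treated over the reference level with its standard error (SE). A gene is called where the p-value of edgeR's quasi-likelihood test, adjusted over all 14965 genes tested, is under 0.05. Nothing in the labels states that replicates came from different dishes or passages. The p-values therefore reflect how much these libraries varied, and part of that variation may be technical. CDDO-Me 24 h replicate 3 stood apart: over 9750 genes the SD of its log2 differences was 0.361 and 0.339 against the other 24 h replicates, which differed from each other by 0.156. Against the 72 h libraries that SD was 0.251 to 0.261. DMSO replicate 1 stood apart to a lesser degree, with 0.242 and 0.264 against DMSO replicates 2 and 3, whose own SD was 0.176. The 72 h libraries were the most alike, at 0.112 to 0.118. Calls of the 9 genes that change without either library are given both ways.

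MT2A was by far the most abundant member per kb of merged exon length, which need not be the length of a single transcript. In DMSO cells its level was 351.4 ± 55.1 CPM per kb (SD, n = 3), followed by MT1E at 30.8 ± 2.06, SLC30A1 at 14.9 ± 1.02 and MTF1 at 6.13 ± 0.33 CPM per kb, and the libraries of each of these 4 genes did not overlap those of the next. MT1L, a transcribed pseudogene, stood at 3.06 ± 1.6 CPM per kb and MT1X at 2.81 ± 0.29, with overlapping libraries. That order depends on the merged lengths, 411 bases for MT1L and 1773 for MT1X. In CPM the DMSO means were 1.26 for MT1L and 4.99 for MT1X. MT1F and MT1M were lower still at 0.494 and 0.490 CPM per kb and also overlapped, and MT1G was last at 0.135. After 72 h of CDDO-Me MT2A was still first at 114.7 ± 1.49 CPM per kb. MT1E at 18.2 ± 1.17 and SLC30A1 at 15.6 ± 0.64 CPM per kb then came close together, though all 3 MT1E libraries stayed above all 3 of SLC30A1. This too depends on length, as in CPM the 72 h means were 19.1 for MT1E and 85.5 for SLC30A1.

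MT2A (ENSG00000125148), the major metallothionein of human cells, lies at chr16:56608199-56609497 on the forward strand. Its level was 147.4, 148.4 and 151.1 CPM in the CDDO-Me 72 h libraries, 383.7, 354.3 and 383.9 CPM in the CDDO-Me 24 h libraries, and 539.1, 416.3 and 413.9 CPM in the DMSO libraries. The 72 h libraries were nearly equal and far below all others, and the 24 h libraries lay just under the DMSO libraries without overlap. At 72 h MT2A fell 3.06-fold against DMSO (log2 fold change -1.62 ± 0.10 SE, 95% interval -1.82 to -1.41, edgeR adjusted p = 1.96e-07). At 24 h the log2 fold change was -0.29 ± 0.10, with an edgeR adjusted p of 0.171 that did not pass. That value is sensitive to the libraries that stood apart. Without DMSO replicate 1, the highest library, it was -0.15, with an edgeR adjusted p of 0.348. Without CDDO-Me 24 h replicate 3 it was -0.31 and passed with an edgeR adjusted p of 0.0496, and without both libraries it was -0.17 and passed at 0.0370. Over all genes these last 2 settings called 1657 and 3464 at 24 h against DMSO, beside 321 with all 9 libraries. Between the treated groups, MT2A was 2.51-fold lower at 72 h than at 24 h (log2 fold change -1.33 ± 0.10, edgeR adjusted p = 8.98e-06). CDDO-Me 24 h replicate 3, which over the 9750 genes compared was nearer to the 72 h libraries than to its own group, had an MT2A level almost equal to that of 24 h replicate 1. Fewer cells that make the transcript and less transcript per cell cannot be told apart in these samples.

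**Figure D1:**
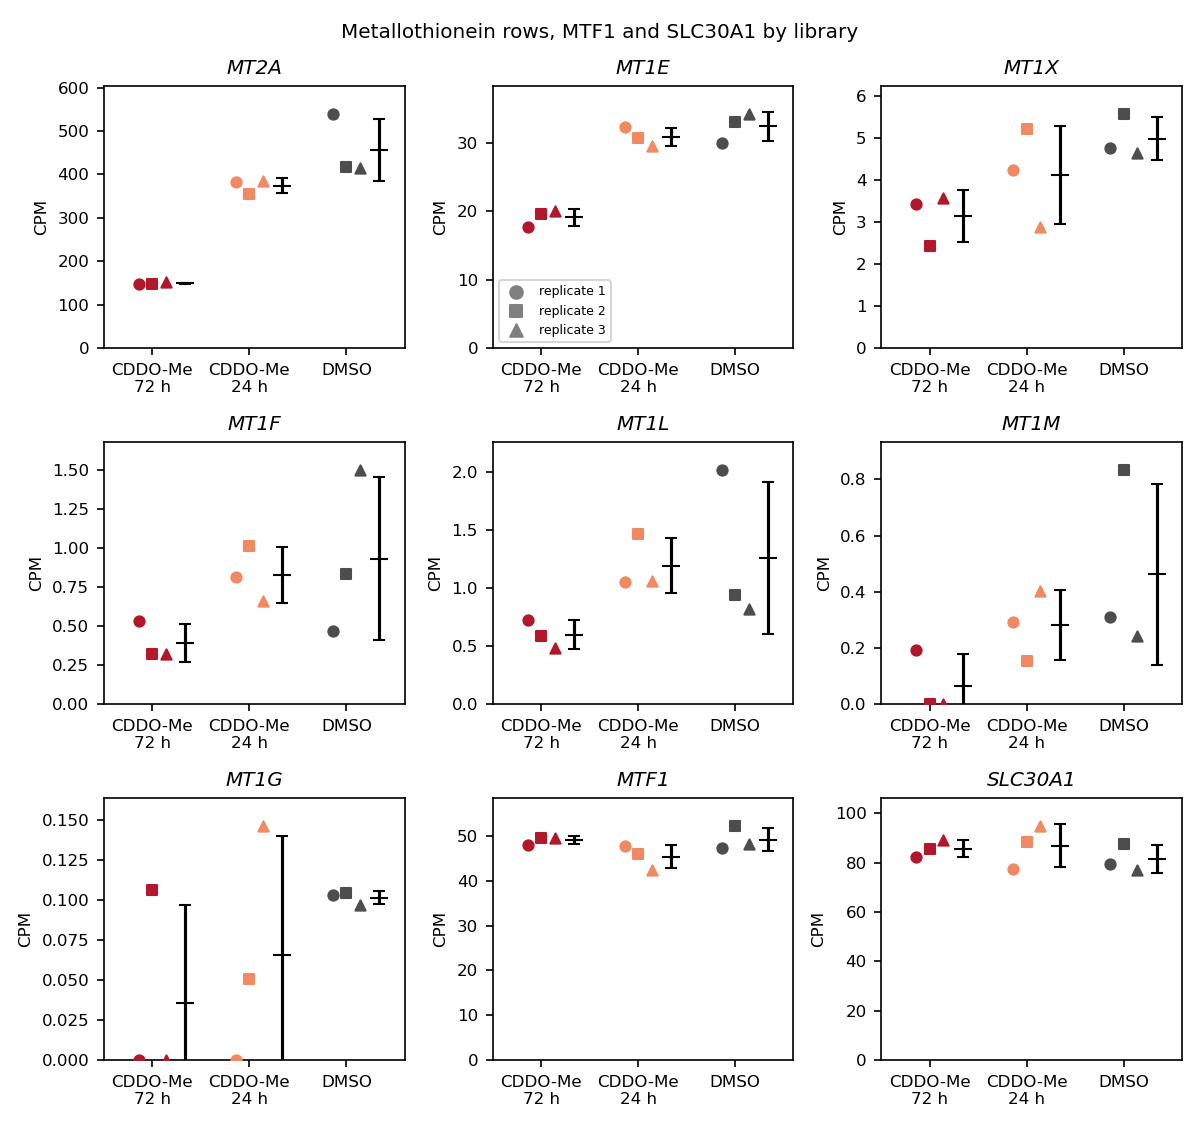
Level of each of the 9 genes in CPM (vertical axes, starting at 0, each with its own scale) in the CDDO-Me 72 h, CDDO-Me 24 h and DMSO libraries. Points are libraries, with the replicate shown by shape, and black bars are the mean and SD of 3; MT2A sits between 147.4 and 151.1 CPM at 72 h, below all other libraries, while MTF1 and SLC30A1 overlap between the CDDO-Me 72 h and DMSO groups.

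MT1E (ENSG00000169715), a close paralog that also binds zinc and copper, lies at chr16:56625475-56627112 on the forward strand. It was at 17.7, 19.6 and 20.1 CPM in the CDDO-Me 72 h libraries, at 32.3, 30.8 and 29.6 CPM in the CDDO-Me 24 h libraries, and at 30.0, 33.0 and 34.2 CPM in the DMSO libraries. All 72 h libraries were below all others, and the 24 h and DMSO libraries overlapped. MT1E fell 1.70-fold at 72 h against DMSO (log2 fold change -0.76 ± 0.10, edgeR adjusted p = 0.000258). It was also lower at 72 h than at 24 h (log2 fold change -0.69 ± 0.10, edgeR adjusted p = 0.00319). At 24 h against DMSO its log2 fold change was -0.07 ± 0.10, with a 95% interval of -0.28 to 0.13 and an edgeR adjusted p of 0.822. DMSO replicate 1, the highest DMSO library for MT2A, was the lowest of the DMSO libraries for MT1E.

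The scarcer rows had fewer reads and wider errors. MT1X (ENSG00000187193, chr16:56682424-56684196, forward strand) encodes another zinc-binding member. It was at 3.44, 2.44 and 3.58 CPM in the CDDO-Me 72 h libraries, at 4.25, 5.22 and 2.89 CPM at 24 h and at 4.76, 5.57 and 4.64 CPM in the DMSO libraries. The 72 h libraries were below the DMSO libraries without overlap, and the 24 h libraries spread across both. Its log2 fold change at 72 h against DMSO was -0.66 ± 0.24, with an edgeR adjusted p of 0.138 that did not pass. Without CDDO-Me 24 h replicate 3 the value was again -0.66 and the edgeR adjusted p was 0.0328, and without both libraries that stood apart it was -0.69 with 0.0164. Over all genes these settings called 1972 and 2724 at 72 h against DMSO, beside 901 with all 9 libraries. A second gene on the same strand, AC026461.1, overlaps MT1X and had 0 reads in all libraries.

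MT1F (ENSG00000198417, chr16:56657694-56660698, forward strand) had 11, 6 and 6 reads in the CDDO-Me 72 h libraries, 14, 20 and 18 reads at 24 h and 9, 16 and 31 reads in the DMSO libraries. DMSO replicate 1 lay among the 72 h libraries in CPM, so those groups overlapped. The log2 fold change at 72 h against DMSO was -1.24 ± 0.49, with an edgeR adjusted p of 0.172 that did not pass. Without both libraries that stood apart it was -1.56, with an edgeR adjusted p of 0.0156. In that setting 2724 genes were called at 72 h against DMSO, beside 901 with all 9 libraries. MT1L (ENSG00000260549, chr16:56617476-56618818, forward strand), annotated as a transcribed unprocessed pseudogene, had 15, 11 and 9 reads at 72 h, 18, 29 and 29 reads at 24 h and 39, 18 and 17 reads in the DMSO libraries. Its 72 h libraries were below all others in CPM. The log2 fold change at 72 h against DMSO was -1.06 ± 0.42, and the edgeR adjusted p of 0.175 did not pass.

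MT1M and MT1G had too few reads to be tested. MT1M (ENSG00000205364, chr16:56632233-56633986, forward strand) had 4, 0 and 0 reads in the CDDO-Me 72 h libraries, 5, 3 and 11 reads at 24 h and 6, 16 and 5 reads in the DMSO libraries. Every DMSO library had more MT1M reads than any 72 h library. The lowest DMSO count, 5, and the highest 72 h count, 4, are too close to tell from counting error. MT1G (ENSG00000125144, chr16:56666731-56668065, reverse strand) had 0, 2 and 0 reads at 72 h, 0, 1 and 4 reads at 24 h and 2 reads in each DMSO library, which overlap. A count of 0 allows up to 3 reads, or 0.110 to 0.175 CPM over these libraries, and this limit covers counting error only. The table held 14 other metallothionein rows, of which 9 had no read and none had more than 7 reads in any library.

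Called changes of the 9 genes were all decreases of MT2A and MT1E. Of the 9 genes, 7 had enough reads to be tested: 5 metallothionein rows, MTF1 and SLC30A1. After 72 h of CDDO-Me 2 of these 7 were called against DMSO, MT2A and MT1E, both lower, where 6.02% of all tested genes were called and 3.13% were called lower. After 24 h 0 of 7 were called by edgeR, where 2.15% of all tested genes were called and 1.18% were called lower. Between 72 h and 24 h of treatment 2 of 7 were called, again MT2A and MT1E and again lower, where 1.02% of all tested genes were called and 0.568% were called lower.

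An unadjusted p under 0.05 was reached by 5 of the 7 genes after 72 h against DMSO, where the share of all tested genes was 18.6%. The same limit was reached by 1 of 7, MT2A, after 24 h (12.8% of all tested genes) and by 3 of 7 between 72 h and 24 h (13.2%). DESeq2 called 0 of 7 after 24 h against DMSO. Among the 5 tested metallothionein rows, 4 had every 72 h library below every DMSO library, a pattern shown by 15.2% of all tested genes. The CDDO-Me 24 h libraries were wholly below the DMSO libraries in 1 of the 5 rows, beside 6.74% of all tested genes. The 72 h libraries were wholly below the 24 h libraries in 4 of the 5 rows, beside 10.2% of all tested genes. The median log2 fold change of the 7 genes was -0.76 at 72 h and -0.12 at 24 h against DMSO, beside -0.00 and 0.01 for all tested genes. Both treated groups were set against the same DMSO libraries.

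**Figure D2:**
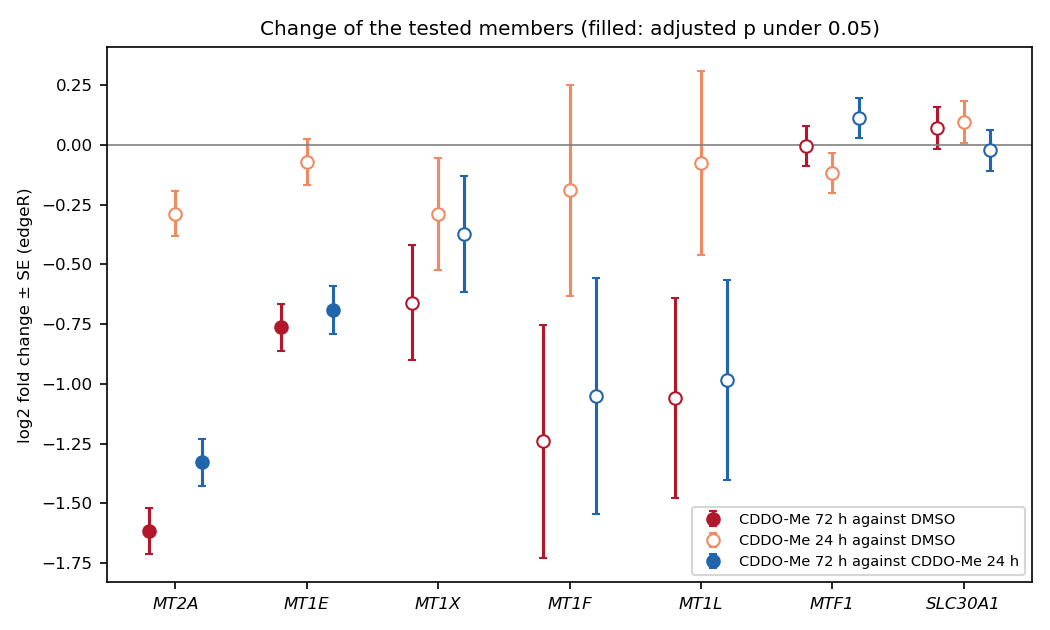
Log2 fold change with its SE (vertical axis, edgeR) of the 7 tested genes for CDDO-Me 72 h against DMSO, CDDO-Me 24 h against DMSO and CDDO-Me 72 h against 24 h. Filled points passed an adjusted p of 0.05; those are MT2A (-1.62) and MT1E (-0.76) at 72 h against DMSO and the same genes at 72 h against 24 h, and the points of MTF1 and SLC30A1 stay within 0.12 of 0.

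Summed over all 21 metallothionein rows of the table, the level was 170.1 to 176.0 CPM in the CDDO-Me 72 h libraries, 393.2 to 422.8 CPM in the CDDO-Me 24 h libraries and 456.0 to 577.3 CPM in the DMSO libraries. These ranges do not overlap, and the sum is almost wholly MT2A. A sum depends less than single rows on how reads were split between paralogs. MT2A made up 86.4 ± 0.43% of the sum at 72 h, 90.8 ± 0.77% at 24 h and 91.7 ± 1.47% in DMSO cells (SD, n = 3 each). MT1E made up 11.1 ± 0.57% at 72 h, 7.51 ± 0.40% at 24 h and 6.64 ± 1.26% in DMSO cells. The ratio of MT2A to MT1E in CPM was 7.81 ± 0.44 at 72 h, 12.1 ± 0.77 at 24 h and 14.2 ± 3.25 in DMSO cells. Every 72 h library, at 7.53 to 8.31, was below every DMSO library, at 12.1 to 18.0, so the 2 transcripts did not fall in proportion. An exact permutation test of 3 libraries against 3 cannot give a two-sided p below 0.1.

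**Figure D3:**
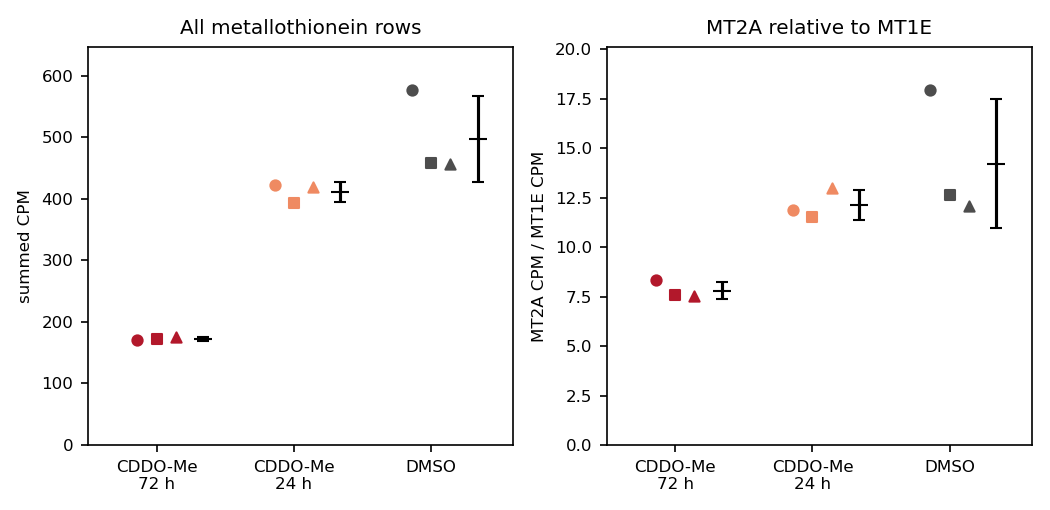
Left, summed CPM of all 21 metallothionein rows by library; right, MT2A CPM over MT1E CPM in the same libraries, both for CDDO-Me 72 h, CDDO-Me 24 h and DMSO, with points for libraries and bars for the mean and SD of 3. The 72 h libraries lie lowest in both panels, at 170.1 to 176.0 CPM and at ratios of 7.53 to 8.31.

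MTF1 and SLC30A1, the sensor and the exporter, were not called in any comparison. MTF1 (ENSG00000188786, chr1:37809567-37859620, reverse strand) was at 48.0, 49.5 and 49.6 CPM in the CDDO-Me 72 h libraries, at 47.7, 46.1 and 42.5 CPM at 24 h and at 47.3, 52.2 and 48.1 CPM in the DMSO libraries. Treated and DMSO libraries of MTF1 overlapped at both times. Its log2 fold change was -0.01 ± 0.08 at 72 h against DMSO, with a 95% interval of -0.18 to 0.17, and -0.12 ± 0.08 at 24 h, with an interval of -0.29 to 0.06. AL929472.4, a processed pseudogene on the opposite strand within MTF1, had 0 reads.

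SLC30A1 (ENSG00000170385, chr1:211571568-211578742, reverse strand) was at 82.2, 85.3 and 89.1 CPM at 72 h, at 77.5, 88.2 and 94.8 CPM at 24 h and at 79.6, 87.7 and 76.9 CPM in the DMSO libraries. The 3 groups overlapped. The log2 fold change was 0.07 ± 0.09 at 72 h (95% interval -0.12 to 0.26) and 0.09 ± 0.09 at 24 h (-0.09 to 0.28), both against DMSO. The interval at 72 h lay wholly above that of MT2A, -1.82 to -1.41. These intervals leave room for small changes of MTF1 and SLC30A1 in either direction.

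No change of another zinc carrier passed the test. Most ZnT proteins (SLC30 genes) move zinc out of the cytosol and ZIP proteins (SLC39 genes) move it in. Of 10 other ZnT genes, with TMEM163 counted among them though not an SLC30 gene, 6 were tested, and of 14 ZIP genes 11. None of either kind was called by edgeR in any comparison of all 9 libraries. Without both libraries that stood apart 3 ZIP genes (SLC39A1, SLC39A7 and SLC39A13) were called higher at 24 h against DMSO, and of the ZnT genes SLC30A3 was called higher and SLC30A9 lower. In that same setting SLC39A14 was called lower at 72 h against DMSO. Between 72 h and 24 h it gave 3 ZIP genes lower (SLC39A7, SLC39A13 and SLC39A14) and of the ZnT genes SLC30A7 lower and SLC30A9 higher. Over all genes that setting called 3464 at 24 h against DMSO, 2724 at 72 h against DMSO and 3471 between 72 h and 24 h. With all 9 libraries those counts were 321, 901 and 152. At an unadjusted p under 0.05, 1 ZnT gene was higher at 72 h against DMSO and 1 ZIP gene was lower, 1 ZnT gene was higher and 0 ZIP genes passed at 24 h against DMSO, and 1 of each was lower at 72 h against 24 h. DESeq2 called 1 of these carriers, a ZIP gene at 72 h against DMSO. The ZIP gene was SLC39A14, an importer of zinc, iron and manganese. SLC39A14 was at 252.7, 239.9 and 249.6 CPM at 72 h, at 302.6, 308.6 and 264.3 CPM at 24 h and at 294.9, 290.6 and 284.9 CPM in the DMSO libraries. Its 72 h libraries were below all others, with a log2 fold change against DMSO of -0.23 ± 0.07 and an edgeR adjusted p of 0.0929. SLC39A14 passed when CDDO-Me 24 h replicate 3 was left out, both against DMSO and against 24 h, and without that library SLC30A3, a loader of vesicles, passed at 24 h against DMSO. Without that library 1657 genes were called over all at 24 h against DMSO, 1972 at 72 h against DMSO and 1843 between 72 h and 24 h. SLC30A3 was at 4.02, 3.61 and 3.26 CPM at 72 h, at 4.66, 4.51 and 3.62 CPM at 24 h and at 1.55, 2.71 and 2.90 CPM in the DMSO libraries. Its treated libraries were all above its DMSO libraries. SLC39A7, which releases zinc from internal stores and was the most expressed ZIP gene, averaged 283.9 ± 7.42 CPM at 72 h, 316.0 ± 21.6 CPM at 24 h and 297.8 ± 39.2 CPM in DMSO cells (SD, n = 3 each), with overlapping CDDO-Me 72 h and DMSO libraries. SLC30A9, the most expressed of the other ZnT genes, averaged 92.8 ± 2.54 CPM at 72 h, 86.6 ± 12.8 CPM at 24 h and 90.6 ± 11.2 CPM in DMSO cells (SD, n = 3 each). Over the 11 tested ZIP genes the log2 fold change at 72 h was -0.23 to 0.11 with a median of 0.02, beside -0.00 for all tested genes. Over the 6 tested ZnT genes it was -0.17 to 0.60 with a median of -0.02.

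Metallothioneins also bind copper, and of 12 genes of copper handling 11 were tested. After 72 h of CDDO-Me 1 of them was called against DMSO, where 2.89% of all tested genes were called higher. This was SOD1, the copper and zinc superoxide dismutase and the most expressed of the list. SOD1 was at 200.3, 206.8 and 203.0 CPM at 72 h, at 162.2, 163.2 and 217.5 CPM at 24 h and at 156.1, 136.1 and 162.1 CPM in the DMSO libraries. The 24 h library as high as the 72 h ones was replicate 3, the one that stood apart. SOD1 rose at 72 h with a log2 fold change of 0.43 ± 0.11 (edgeR adjusted p = 0.0287), a call that was lost when either of DMSO replicates 1 and 2 or any single 72 h library was left out. In the other comparisons no copper gene was called by edgeR or DESeq2. At an unadjusted p under 0.05, 2 were higher at 24 h against DMSO and 1 was lower at 72 h against 24 h. Without CDDO-Me 24 h replicate 3, however, CCS, the copper chaperone of SOD1, passed at 24 h against DMSO and SOD1 passed at 72 h against 24 h. Over all genes 1657 and 1843 were called in these comparisons without that library. Without both libraries that stood apart the counts of copper genes were 3 at 24 h against DMSO, 2 at 72 h against DMSO and 4 between 72 h and 24 h. SOD1 was among those called in both comparisons of the 72 h libraries. Over all genes that setting called 3464, 2724 and 3471 in the same order.

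**Figure D4:**
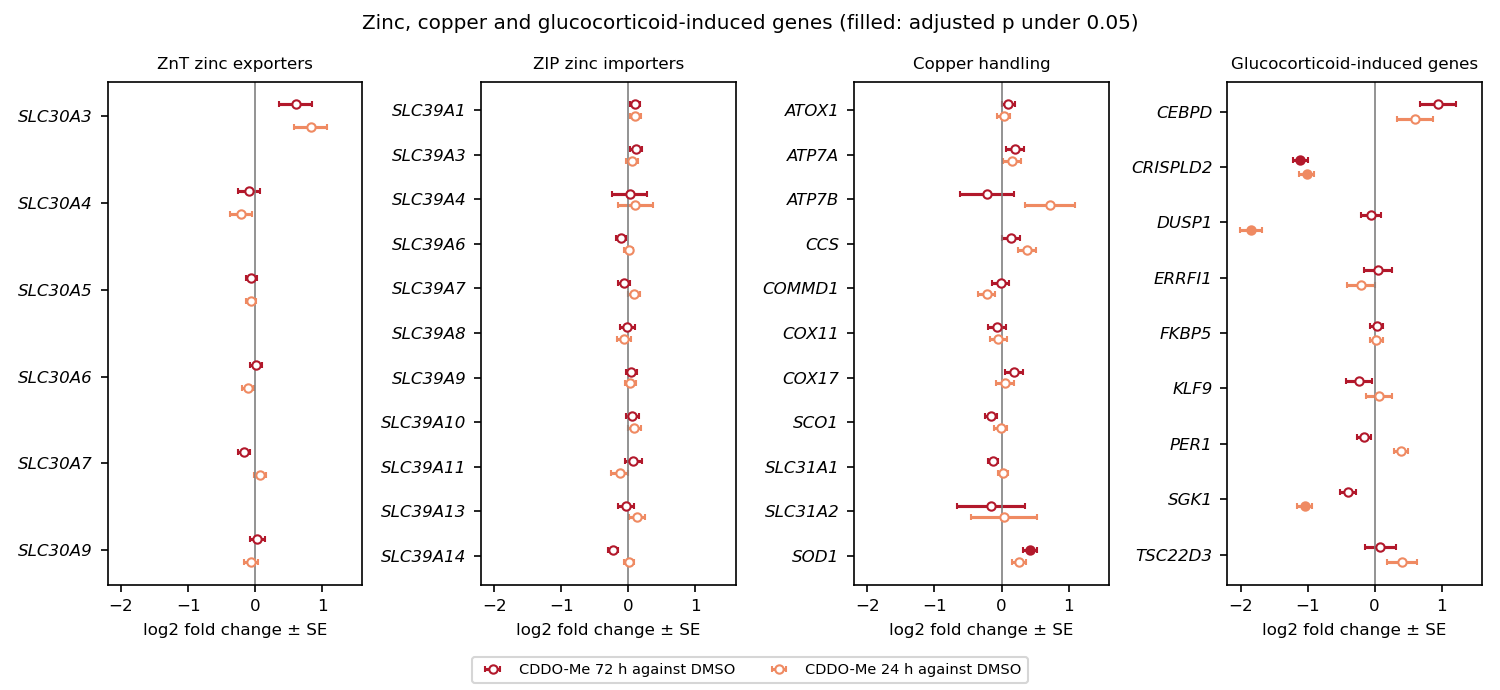
Log2 fold change with its SE (horizontal axes, edgeR) of the tested ZnT, ZIP, copper-handling and glucocorticoid-induced genes, for CDDO-Me 72 h against DMSO (upper point of each pair) and CDDO-Me 24 h against DMSO (lower point). Filled points passed an adjusted p of 0.05; no zinc carrier did, SOD1 did at 72 h (0.43), and CRISPLD2, DUSP1 and SGK1 lie lowest at 24 h.

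Glucocorticoids are known inducers of MT2A, and 9 of 10 genes known to be induced by them were tested. After 24 h 3 fell against DMSO by edgeR, where 1.18% of all tested genes were called lower: CRISPLD2 (log2 fold change -1.02 ± 0.11), DUSP1 (-1.84 ± 0.16), a phosphatase that switches off MAP kinases, and SGK1 (-1.04 ± 0.12), a kinase that acts on ion channels. Leaving out DMSO replicate 1 added PER1 and TSC22D3 to the genes called, both higher, and leaving out CDDO-Me 24 h replicate 3 added PER1. Over all genes these settings called 351 and 1657 at 24 h against DMSO. After 72 h CRISPLD2 alone of the tested genes of the list passed against DMSO (-1.11 ± 0.11, edgeR adjusted p = 2.77e-05), where 3.13% of all tested genes were called lower. CRISPLD2, a secreted protein, was at 26.6, 25.6 and 26.5 CPM at 72 h, at 30.6, 30.4 and 23.3 CPM at 24 h and at 53.7, 60.9 and 55.4 CPM in the DMSO libraries. Its treated libraries were all below its DMSO libraries. DUSP1 was at 126.4 ± 2.98 CPM at 72 h, 36.5 ± 9.01 CPM at 24 h and 131.5 ± 20.9 CPM in DMSO cells (SD, n = 3 each), so it was lowest at 24 h. Between 72 h and 24 h of treatment DUSP1 (1.79 ± 0.16) and SGK1 (0.65 ± 0.12) were higher, where 0.448% of all tested genes were called higher, and the clock gene PER1 (-0.55 ± 0.10) was lower. DUSP1 alone remained called when CDDO-Me 24 h replicate 2 or any single 72 h library was left out, and PER1 was lost without CDDO-Me 24 h replicate 1. SGK1 also passed at 72 h against DMSO, as lower, when DMSO replicate 1 or CDDO-Me 24 h replicate 3 was left out. CEBPD passed with the first of these left out and went the other way. It was at 56.7 to 64.0 CPM at 72 h and 18.3 to 37.8 CPM in the DMSO libraries. Over all genes these settings called 726 and 1972 at 72 h against DMSO. FKBP5, a chaperone partner of the glucocorticoid receptor and a widely used marker of its activity, averaged 74.1 ± 4.69 CPM at 72 h, 73.7 ± 6.23 CPM at 24 h and 72.5 ± 7.89 CPM in DMSO cells.

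Targets of NRF2 were measured as a check on the treatment. NQO1, a quinone reductase driven by NRF2, was at 3348 ± 40.5 CPM at 72 h, 1879 ± 256 CPM at 24 h and 449.2 ± 40.3 CPM in DMSO cells (SD, n = 3 each). Of 5 NRF2 target genes checked, edgeR called 4 higher at 72 h against DMSO, where 2.89% of all tested genes were called higher. At 24 h edgeR called 1 higher, NQO1, where that share was 0.969%. All 5 nevertheless had every 24 h library above every DMSO library. All 5 also had an unadjusted edgeR p under 0.05 at 24 h, which 12.8% of all tested genes reached in either direction. DESeq2 called all 5 higher at 24 h, where it called 546 genes over all. With edgeR, leaving out DMSO replicate 1 or any single 72 h library gave 2 calls at 72 h, and leaving out CDDO-Me 24 h replicate 2 or 3 gave 5. Leaving out CDDO-Me 24 h replicate 1 or 2 gave 2 at 24 h, and leaving out replicate 3 gave 5, where 1657 genes were called over all. HMOX1, which breaks down haem, was at 822.0, 747.1 and 880.1 CPM at 72 h, 145.8, 145.8 and 644.6 CPM at 24 h and 22.1, 23.6 and 25.8 CPM in the DMSO libraries. In CDDO-Me 24 h replicate 3 HMOX1 was thus closer to its 72 h levels than to those of its own group. GCLM (541.7 CPM), TXNRD1 (3162 CPM) and SRXN1 (43.0 CPM) in that library were above all their 72 h libraries. NQO1 in that library, at 2169 CPM, was nearer to the other 24 h libraries. MT2A there was at 383.9 CPM, near its fellow 24 h libraries. A link between these targets and MT2A was not tested.

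Levels of some cell type markers also differed between the groups, not all in the direction of the metallothioneins. At 72 h against DMSO 3.13% of all tested genes were called lower and 2.89% higher, which the marker calls below stand beside. The summed level of 5 epithelial markers was 128.0 to 136.9 CPM at 72 h, 154.0 to 221.4 CPM at 24 h and 225.1 to 268.9 CPM in the DMSO libraries, with 2 of 4 tested markers lower at 72 h against DMSO. That of 6 smooth muscle markers was 223.5 to 241.3 CPM at 72 h, 194.0 to 286.7 CPM at 24 h and 292.1 to 492.0 CPM in the DMSO libraries, with 3 lower and 1 higher at 72 h. All 10 fibroblast markers were tested, and 3 were called lower and 0 higher at 72 h. Their summed level was above the DMSO libraries at 72 h, at 17270 to 17777 CPM at 72 h, 12614 to 19063 CPM at 24 h and 15164 to 16492 CPM in the DMSO libraries. COL1A1, the most abundant of them, was at 9418 to 9806 CPM at 72 h and 8140 to 9653 CPM in the DMSO libraries, which overlap. Endothelial and leukocyte markers summed to at most 2.10 CPM in any library. NEAT1, a nuclear RNA used here as a sign of RNA quality, was at 44.1, 36.2 and 36.8 CPM at 72 h, 126.1, 138.5 and 30.6 CPM at 24 h and 88.3, 58.7 and 46.5 CPM in the DMSO libraries. MALAT1, the other RNA read for this purpose, averaged 34.7 ± 14.4 CPM at 72 h, 62.8 ± 25.8 CPM at 24 h and 52.4 ± 16.7 CPM in DMSO cells (SD, n = 3 each). Its libraries overlapped in every comparison, and none was called with all 9 libraries. NEAT1 was not called in any comparison of all 9 libraries. Without CDDO-Me 24 h replicate 3 it was called higher at 24 h against DMSO and lower at 72 h against 24 h, and without both libraries that stood apart it was also called lower at 72 h against DMSO. Over all genes 1657, 1843 and 2724 were called in these settings and comparisons, in the same order. The part of these features in the fall of MT2A and MT1E was not tested.

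The genes most like MT2A over the 9 libraries were found by Pearson's r of log2 CPM among 9772 genes with an average log2 CPM of at least 3. They were ANTXR2 (r = 0.981), PPRC1 (0.978), POSTN (0.975), TWNK (0.973) and SH2B3 (0.971). ANTXR2, a receptor for anthrax toxin that binds collagen, averaged 54.8 ± 2.59 CPM at 72 h, 83.8 ± 5.58 CPM at 24 h and 90.2 ± 4.82 CPM in DMSO cells (SD, n = 3 each). POSTN, the matrix protein periostin and one of the fibroblast markers, was at 4.13 ± 0.45 CPM at 72 h, 27.2 ± 6.60 CPM at 24 h and 41.7 ± 5.07 CPM in DMSO cells. Both had their lowest mean at 72 h and a 24 h mean nearer to the DMSO mean. They were picked for likeness to MT2A over these libraries, so an order shared with MT2A follows from that choice. MT2A and MT1E had an r of 0.948, while MT2A had an r of -0.27 with MTF1 and of -0.21 with SLC30A1. The genes most like SLC30A1 were FAM217B (0.959), ZXDB (0.922), SLC35B4 (0.878), TMEM192 (0.874) and MAP3K2 (0.871). These values share libraries and group differences and are descriptions over 9 libraries.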

How the data were processed

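RNA of 9 AC16 libraries (TruSeq RNA v2, unstranded, polyadenylated RNA, per the labels' protocols) was compared. The authors deposited whole-number read counts per Ensembl gene, not normalized. STAR, SAMtools, Subread and featureCounts, with the builds hg38 and GRCh38, are named in the submitters' processing notes. Their versions, the annotation release, the strand setting and the treatment of reads matching several genes were not given in the sources used here. Groups came from the treatment labels. Titles write CDDO in places, and all treated libraries were taken as CDDO-Me.

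Counts were tested with edgeR 4.0.16 in R 4.3.3 (robust quasi-likelihood fit, TMM factors, filterByExpr, 3 group means over 9 libraries, 6 residual degrees of freedom), with Benjamini-Hochberg adjustment over 14965 genes and a threshold of 0.05. Each SE was the size of the log2 fold change divided by the root of its F statistic. CPM per kb used the merged exon length of the table. The fit was tested on simulated data with known changes. Positions are those of the deposited table, which match GENCODE 29 for all 9 genes. Of 58299 identifiers, 57717 had a symbol. Depth was 16898977 to 27910031 counts, and every replicate pair differed by more than counting noise (lowest chi-square per degree of freedom 2.09).

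The members and lists were chosen with earlier results of these data known. Named genes are all 9 members, other metallothionein rows with 10 or more reads, up to 4 called genes per list (smallest adjusted p first) and its most expressed gene, and the 5 genes most like MT2A and SLC30A1. SLC39A14, SLC30A3, FKBP5, NEAT1, MALAT1, COL1A1 and genes named for a call under an alternative were added after their values were seen. Alternatives were other size factors, no filter, DESeq2 1.42.0, limma 3.58.1 (voom, with and without sample weights), a replicate block, only the groups compared, and leaving out libraries.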

Additional observations from a re-analysis of the deposited data

Results flagged for a closer look

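The effect of CDDO-Me on MT2A differed between the times. The log2 fold change between 72 h and 24 h of treatment was -1.33 ± 0.10 SE, with edgeR adjusted p = 8.98e-06, and all 3 libraries of 72 h (147.4 to 151.1 CPM) were below all 3 of 24 h (354.3 to 383.9 CPM). MT1E differed between the times in the same direction, with a log2 fold change of -0.69 ± 0.10 and edgeR adjusted p = 0.00319, at 17.7 to 20.1 CPM in the 72 h libraries and 29.6 to 32.3 CPM in the 24 h libraries. Both effects are set against the same DMSO libraries, so the difference is the direct contrast of the treated groups, and time in culture cannot be told apart from length of treatment.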

How the results depend on the processing

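MT2A and MT1E kept their direction and their calls at 72 h against DMSO and at 72 h against 24 h under all 18 alternatives. The log2 fold change ran from -1.68 to -1.48 for MT2A and from -0.82 to -0.71 for MT1E against DMSO, and from -1.35 to -1.30 and from -0.73 to -0.64 against 24 h, where the adjusted p of MT1E reached 0.0464. The count of members called at 24 h against DMSO was 1 instead of 0, MT2A, with no filter on low counts, with voom sample weights (adjusted p = 0.0328) and without both libraries that stood apart, and 0 to 1 when single libraries were left out. At 72 h against DMSO it was 4 instead of 2, with MT1X and MT1F added, with voom sample weights and without both libraries, and 2 to 3 when single libraries were left out. At 72 h against 24 h it was 4 instead of 2, with MT1F and MT1L added, with voom sample weights, 3 without both libraries, where MT1X was added (adjusted p = 0.0414), and 2 when any single library was left out. These settings also called more genes over all. In the same order of comparisons, voom sample weights called 1640, 2604 and 2938 genes, beside 321, 901 and 152 in the main fit. No filter called 662 at 24 h against DMSO, and leaving out both libraries called 3464, 2724 and 3471. The cause was not tested.

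Signs turned only for values that no setting called. MT1L at 24 h against DMSO (-0.08) was 0.018 with voom, 0.30 with sample weights, 0.0042 with the replicate block, 0.52 with both libraries left out and -0.31 to 0.43 with single libraries left out. MT1F at 24 h (-0.19) was 0.0086 with sample weights and -0.51 to 0.34 with single libraries left out. MTF1 at 72 h against DMSO (-0.0053) was 0.0043 with no filter and -0.032 to 0.040 with single libraries left out. SLC30A1 at 72 h against 24 h (-0.023) was 0.018 with sample weights, 0.044 with both libraries left out and -0.099 to 0.048 with single libraries left out. Among the gene lists, the settings that moved most counts were voom sample weights and leaving out both libraries. With both left out the glucocorticoid-induced list gave 7 calls instead of 3 at 24 h, 6 instead of 1 at 72 h and 5 instead of 3 between 72 h and 24 h. In that setting 3464, 2724 and 3471 genes were called over all, in the same order. The counts over all genes, 321, 901 and 152 in the order 24 h against DMSO, 72 h against DMSO and 72 h against 24 h, were 100 to 3464, 401 to 2724 and 32 to 3471 over the alternatives. Under the replicate block they were 358, 963 and 219, and the members called were 0, 2 and 2, unchanged. The 9 correlations of same-numbered deviations were weak but all positive, at 0.0018 to 0.181. Weak pairing by replicate number therefore cannot be told apart from none. Depth limits MT1F, MT1L, MT1M and MT1G, which had at most 39 reads in any library.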
